A study of Homo sapiens with 31 samples.

Results

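Eukaryotic initiation factor 3 (eIF3) subunits were followed as 9 mRNAs, those of EIF3A, EIF3B, EIF3D, EIF3E, EIF3G, EIF3H, EIF3J, EIF3K and EIF3M, across all 31 libraries of a study of HEK293 T-REx cells. HEK293 T-REx is a human embryonic kidney line that carries a Tet repressor for inducible expression. The members were chosen by 1 transcript identifier per gene among the 227264 transcripts of the files, and kept where the length given for the transcript was within 5 of the protein length in amino acids less 9. All 9 were found, and each matched that length exactly. They are EIF3A (ENST00000369144.8, chromosome 10, 1373 codons counted), EIF3B (ENST00000360876.9, chromosome 7, 805 codons), EIF3D (ENST00000216190.13, chromosome 22, 539 codons), EIF3E (ENST00000220849.10, chromosome 8, 436 codons), EIF3G (ENST00000253108.9, chromosome 19, 311 codons), EIF3H (ENST00000521861.6, chromosome 8, 343 codons), EIF3J (ENST00000261868.10, chromosome 15, 249 codons), EIF3K (ENST00000248342.9, chromosome 19, 209 codons) and EIF3M (ENST00000531120.6, chromosome 11, 365 codons). EIF3A, EIF3E and EIF3H were classed beforehand as TOP-type, meaning that their mRNAs are held to begin with a terminal oligopyrimidine motif, and the other 6 as not. The TOP-type class was not computed from these files, but members and classes were chosen with earlier results of these data known.

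The series compares naive cells with cells in which EIF4A1 or EIF4A2 was knocked out (KO). Ribosome profiling gave, for each of the 3 genotypes, 2 libraries treated with the solvent DMSO, 1 library treated for 30 min with 1 µM PP242 and 1 with 10 µM PP242. RNA-seq covered naive and EIF4A1 KO cells with no treatment named, in 2 libraries per genotype. RNA pulldown on streptavidin beads was done from cells expressing SBP-tagged eIF4A1 or SBP-tagged eIF4A2, with 2 input and 2 pulldown libraries each, and again from SBP-eIF4A1 cells 72 h after transfection with control siRNA (2 inputs, 2 pulldowns) or LARP1 siRNA (2 inputs, 1 pulldown). Whether each KO is a single clone, and whether libraries of 1 group came from separate cultures, is not given in the sources used here, so p-values measure only the spread between these libraries, which may be technical. The files name transcripts but not genes, and the levels of EIF4A1, EIF4A2 and LARP1 were not analysed here. Genotype and knockdown therefore rest on the labels.

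eIF3 is the largest of the initiation factors. It binds the small ribosomal subunit, recruits the initiator tRNA complex and mRNA, and holds the cap-binding machinery near the ribosome. An octamer of PCI and MPN proteins, which includes EIF3A, EIF3E, EIF3H, EIF3K and EIF3M, forms its core in human cells, and EIF3B and EIF3G sit in a separate module that EIF3A anchors. EIF3D can contact the mRNA cap, and EIF3J is a loosely bound subunit that reaches the decoding site. mTORC1, a kinase complex that PP242 blocks through mTOR, keeps mRNAs with a TOP motif in translation. When it is inhibited, the RNA-binding protein LARP1 binds the cap and the adjoining pyrimidines and represses them. eIF4A1 and its paralogue eIF4A2 are RNA helicases of the initiation machinery.

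The first bases of the mRNA bear on this class, and annotated start sites are shown for the 5 subunits that the RefSeq promoter table held. Each line below gives 10 bases before the annotated start and 15 from it, 5′ to 3′ on the coding strand of GRCh38.p14. Capitals mark an uninterrupted run of C or T from the start, where the start is a C followed by at least 4 pyrimidines.
EIF3D: cgcatgtttcCTCTTTTCCTggttt
EIF3K: tttccaccacCTCTTCCTgttcccg
EIF3M: gcccagttccCTTTTCCggtcggcg
EIF3B: tcgcacgcacatggctgggctgtag
EIF3J: ccgccgtgctaactcctcgctagct
EIF3D (chr22:36529152-36529176, minus strand) had a run of 10 pyrimidines. The run was 8 in EIF3K (chr19:38619178-38619202, plus strand) and 7 in EIF3M (chr11:32583821-32583845, plus strand). EIF3B (chr7:2354817-2354841) and EIF3J (chr15:44537137-44537161), both on the plus strand, had an A as the first base and so no run. The EIF3B start shown lies inside the annotated gene, which begins upstream at position 2354086, while the other 4 starts are at the outer edge of theirs. All 5 belong to the subunits not classed as TOP-type, and 3 of the 5 thus carried such a start, against 4.07% of the 35116 promoters of the table. Within 10 bases on either side of the annotated start, EIF3J also held the pattern, as did 33.5% of all promoters, on the coding strand only. These are annotated starts of 1 transcript per gene, and the starts used in these cells were not measured here. EIF3A, EIF3E, EIF3G and EIF3H were not in the table.

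Summed over 1 transcript per locus, the libraries held 2515012 to 6420286 counts in ribosome profiling, 19706862 to 21631521 in RNA-seq, 11890148 to 17642738 in pulldown inputs and 12633197 to 16314826 in pulldowns. A subunit had 265 to 3952 counts in a profiling library (EIF3H lowest, EIF3K highest) and 281 to 13426 elsewhere (EIF3J lowest, EIF3E highest). Libraries of 1 group differed more in the siRNA inputs and pulldown and in the SBP-eIF4A2 pulldown (chi-square per degree of freedom 6.239 to 12.675) than in the other groups (1.25 to 2.09), where 1 is sampling noise alone. Levels are given as CPM (counts scaled to library size, after edgeR's TMM scaling), so every change is relative to the other transcripts of the library. How reads shared with other isoforms or near-identical copies of a gene were counted is not given in the sources used here, and levels may include such reads. Values are averages over a culture, in which fewer expressing cells and less RNA per cell cannot be told apart.

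Footprint density, CPM per 100 codons, differed widely among the subunits in naive DMSO cells. EIF3K, a small peripheral PCI subunit, had the highest density at 314 ± 6.55 (SD, n = 2), which was 4.79 times that of EIF3B. EIF3E followed at 132 ± 0.311 (SD, n = 2) and EIF3M at 108 ± 1.68 (SD, n = 2). EIF3D and EIF3G, at 80.7 ± 1.44 and 78.6 ± 0.527 (SD, n = 2), differed by little more than their spreads. EIF3B had 65.6 ± 0.473, EIF3H 59.0 ± 1.73 and EIF3J 55.1 ± 1.88 (SD, n = 2), and the last pair too lay only just apart. EIF3A, the largest subunit and scaffold of the complex, had the lowest density, 39.5 ± 1.84 (SD, n = 2). Of the TOP-type subunits, EIF3E thus stood near the top of the order, EIF3H in its lower part and EIF3A at its end.

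RNA per 100 codons followed a like order in naive cells, from 286 CPM for EIF3K to 19.96 for EIF3J. Dividing footprint by RNA density gave 2.76 for EIF3J, which was the highest ratio, and 0.597 for EIF3G, an RNA-recognition subunit, which was the lowest. The remaining 7 lay between 0.810 (EIF3D) and 1.30 (EIF3H), with EIF3A at 1.09 and EIF3E at 0.925. RNA was measured in cells with no treatment named and by another library kit, so these ratios serve to order the subunits and have no absolute scale. EIF3J was therefore the subunit with the scarcest RNA and the most footprints for it.

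**Figure D1:**
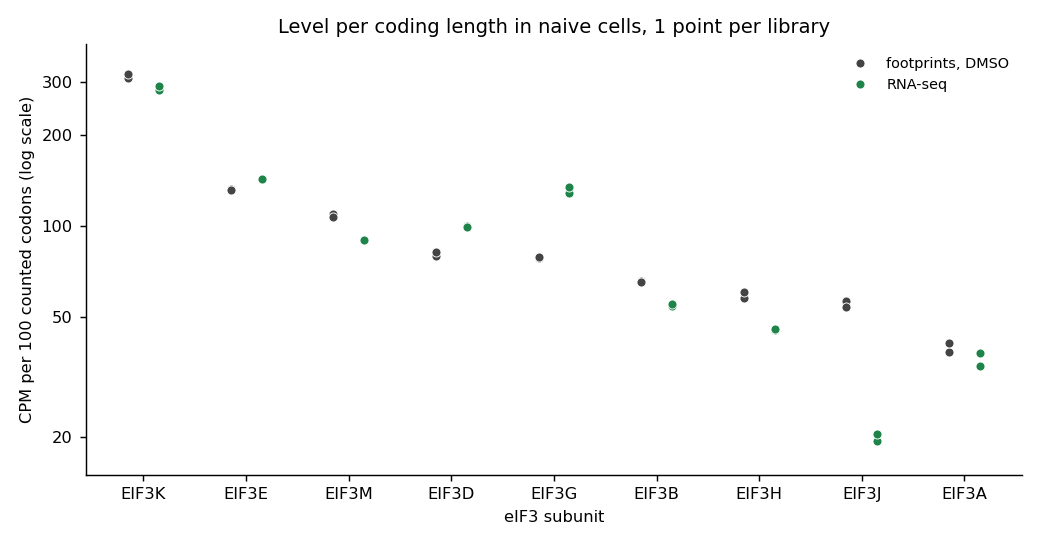
Footprint and RNA density of the 9 subunits in naive cells, in CPM per 100 codons on a log axis, with 1 point per library. In footprints EIF3K lies highest (314) and EIF3A lowest (39.5). EIF3J has the lowest RNA (19.96) and is the subunit with the widest gap between footprints and RNA.

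PP242 asks what blocking mTOR does to translation of each subunit. In naive cells footprints of 7 of 9 subunits fell, and EIF3B and EIF3J did not pass the test. EIF3H, an MPN subunit, fell most, to 42.5% of its DMSO level, and EIF3E, a PCI subunit, to 62.0%. Both are TOP-type, but EIF3G and EIF3K, which are not classed so, fell to similar levels as EIF3E, 61.0% and 63.7%. EIF3A, also TOP-type, fell to 82.6%. Differences between subunits were not tested. Over all 20505 transcripts tested 5.71% were called as lower, and among abundant ones (averaging 5 or more on the log2 CPM scale) 14.3%. Every subunit lay well above that cutoff in the profiling libraries, so the abundant transcripts are not matched to the subunits in level. Both doses were pooled against DMSO, and RNA was not measured under PP242, so these are changes of footprints and not of translation per mRNA.

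EIF3H stood at 198 and 206 CPM in naive DMSO cells, and PP242 left 76.5 at 1 µM and 95.6 at 10 µM. The treated libraries lay far under both controls, a log2 change of -1.26 (SE 0.088, edgeR adjusted p 7.92e-20). EIF3E had 576 and 574 CPM in DMSO, 351.7 at 1 µM and 362 at 10 µM (log2 change -0.69, SE 0.064, edgeR adjusted p 3.57e-14). EIF3G went from 243 and 246 CPM to 142 and 156 (log2 change -0.72, SE 0.078, edgeR adjusted p 1.66e-11). For EIF3K the DMSO libraries held 647 and 666 CPM and the treated ones 378 and 458 (log2 change -0.66, SE 0.067, edgeR adjusted p 1.75e-12). In these 4 subunits the higher of the treated libraries was still well below the lower control, and the gap between the DMSO libraries of any subunit was at most 0.095 log2 units.

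EIF3M, a PCI subunit, stood at 399 and 390.4 CPM in DMSO and at 302 and 333 under PP242 (log2 change -0.32, SE 0.067, edgeR adjusted p 0.0004). EIF3A had 525 and 560.5 CPM against 424 and 473 (log2 change -0.28, SE 0.064, edgeR adjusted p 0.00137), and EIF3D 429 and 440.3 against 355 and 371 (log2 change -0.26, SE 0.064, edgeR adjusted p 0.00289). These are the small falls, still without overlap between treated and control libraries. EIF3B, the scaffold of the EIF3B–EIF3G module, had 531 and 525 CPM in DMSO and 521 and 537 under PP242 (log2 change 0.00, SE 0.063, edgeR adjusted p 0.994). EIF3J had 140.5 and 134 CPM in DMSO and 134 and 135 under PP242 (log2 change -0.03, SE 0.080, edgeR adjusted p 0.881). In both of these the treated libraries overlapped the controls. Both have an A at the start shown, but that of EIF3B lies inside its gene, and EIF3J holds the pattern within 10 bases. All 3 subunits with a pyrimidine start (EIF3D, EIF3K and EIF3M) fell, by unequal amounts. In EIF4A1 KO cells EIF3J was called as lower as well (-0.29), beside -0.27 for EIF3K, -0.35 for EIF3D and -0.57 for EIF3M. No start is shown for EIF3A, EIF3E, EIF3G and EIF3H, and the part of the start in the response was not tested. The 10 µM library lay above the 1 µM library for every subunit in naive cells, by 0.008 to 0.32 log2 units. Leaving out the naive 1 µM library left 4 of 9 subunits called and EIF3A, EIF3D and EIF3M uncalled, with changes of -0.20, -0.23 and -0.25, and without naive DMSO replicate 2 EIF3A and EIF3D were not called.

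**Figure D2:**
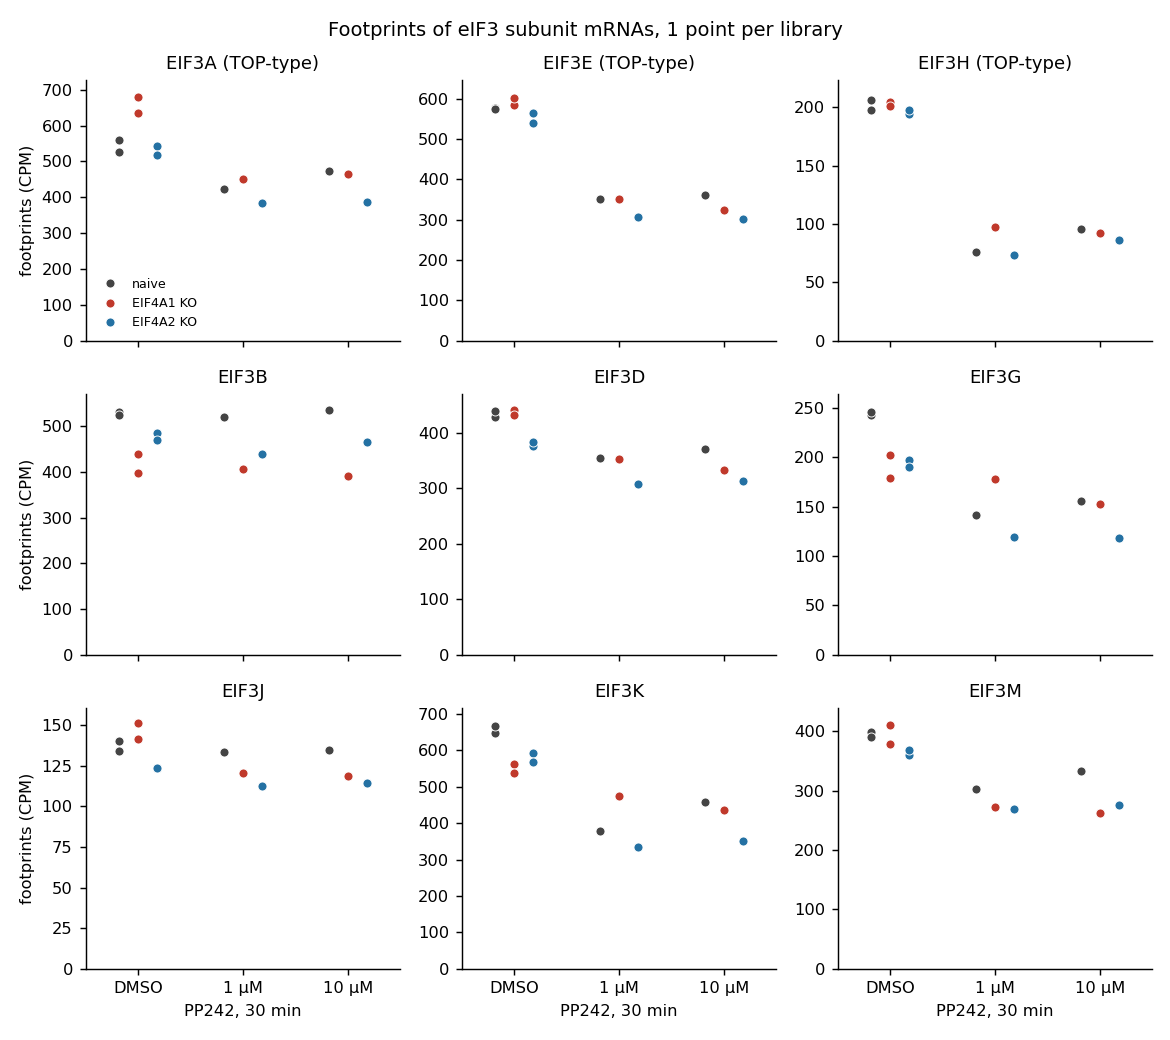
Footprint level of each subunit in CPM in the 12 profiling libraries, by treatment and genotype, with 1 point per DMSO or PP242 library. EIF3H drops from 198 and 206 to 76.5 and 95.6 CPM in naive cells, while EIF3B stays between 521 and 537.

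Without EIF4A1 the subunits fell in another order. In EIF4A1 KO cells 7 of 9 were again called as lower (3.7% of all transcripts were, and 11% of abundant ones), but the uncalled pair was EIF3B and EIF3G. EIF3H fell to 46.8% of DMSO, EIF3E to 57.1%, EIF3M to 67.6%, EIF3A to 69.6% and EIF3D to 78.6%. EIF3H had 205 and 201 CPM in its controls, then 97.1 (1 µM) and 92.7 (10 µM), and EIF3E 584 and 602, then 353 and 324. The controls of EIF3M held 378 and 411 CPM and the treated libraries 272 and 261, and those of EIF3D 442 and 432 against 354 and 333. None of these 4 overlapped, and the 10 µM library was now the lower one in each. EIF3G stood at 179 and 203 CPM in DMSO and 178 and 153 under PP242, so the 1 µM library lay just below the lower control (log2 change -0.22, SE 0.082, edgeR adjusted p 0.107). At 10 µM alone against DMSO its change was -0.32 with an edgeR adjusted p of 0.0212. EIF3K went from 562 and 538 CPM to 476 and 436 (log2 change -0.27, SE 0.068, edgeR adjusted p 0.00584). EIF3A had 678 and 634 CPM in DMSO and 450.4 and 463 under PP242 (log2 change -0.52, SE 0.065, edgeR adjusted p 2.43e-09). EIF3J, at 142 and 151 CPM in DMSO and 120.3 and 119 under PP242, was called here (log2 change -0.29, SE 0.085, edgeR adjusted p 0.0228). The EIF3J call was lost without either DMSO library or either PP242 library of this genotype, and that of EIF3K without DMSO replicate 1 or the 10 µM library.

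EIF4A2 KO cells resembled naive cells in their order. Of the subunits 7 were called as lower, the same 7 as in naive cells (7.11% of all transcripts were called as lower, 18.2% of abundant ones). EIF3H went from 195 and 198 CPM to 73.4 and 86.0 (log2 change -1.30, SE 0.084, edgeR adjusted p 1.78e-21). EIF3E fell from 539 and 564 CPM to 306 and 302 (log2 change -0.86, SE 0.063, edgeR adjusted p 9.64e-19). The levels of EIF3G were 198 and 191 CPM in DMSO and 119 and 118 under PP242 (log2 change -0.71, SE 0.079, edgeR adjusted p 3.75e-11). These 3 therefore had wide gaps between control and treated libraries. EIF3K dropped from 593 and 567 CPM to 336 and 351.96 (log2 change -0.75, SE 0.067, edgeR adjusted p 5.83e-15), while EIF3A, EIF3M and EIF3D changed by -0.46, -0.42 and -0.29. For EIF3A this was 543 and 517 CPM in DMSO against 383 and 386, for EIF3M 359 and 368 against 268 and 276, and for EIF3D 377 and 383 against 309 and 314. EIF3B at 485 and 470.1 against 439.8 and 466 CPM, and EIF3J at 124 and 124 against 113 and 115, did not pass the test (edgeR adjusted p 0.51 and 0.385). All 9 subunits had both treated libraries below both DMSO libraries in EIF4A2 KO cells, as 25.2% of all transcripts did. That count was 7 of 9 in naive cells (25% of all transcripts) and 8 of 9 in EIF4A1 KO cells (23.8%).

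As a group the subunits classed beforehand as TOP-type had the lower median response in each genotype, with overlap between the classes. In naive cells the median log2 change was -0.69 for the 3 TOP-type and -0.29 for the other 6 subunits, a gap of 0.40, against 0.005 for all transcripts tested. With EIF4A1 knocked out the medians were -0.81 and -0.28, and with EIF4A2 knocked out -0.86 and -0.35, beside 0.009 and 0.013 for all transcripts. EIF3G, EIF3K and EIF3M (-0.32 against -0.28 for EIF3A) lay within the TOP-type range in naive cells, EIF3G and EIF3K did in EIF4A2 KO cells, and EIF3M did in EIF4A1 KO cells (-0.57 against -0.52 for EIF3A). These medians describe 3 and 6 genes and were not tested. Of the other 6, EIF3D, EIF3K and EIF3M also had a pyrimidine run at the annotated start, and no start was available for the 3 TOP-type subunits. The gap is therefore between the classes as set, not between mRNAs shown to have or lack the motif.

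**Figure D3:**
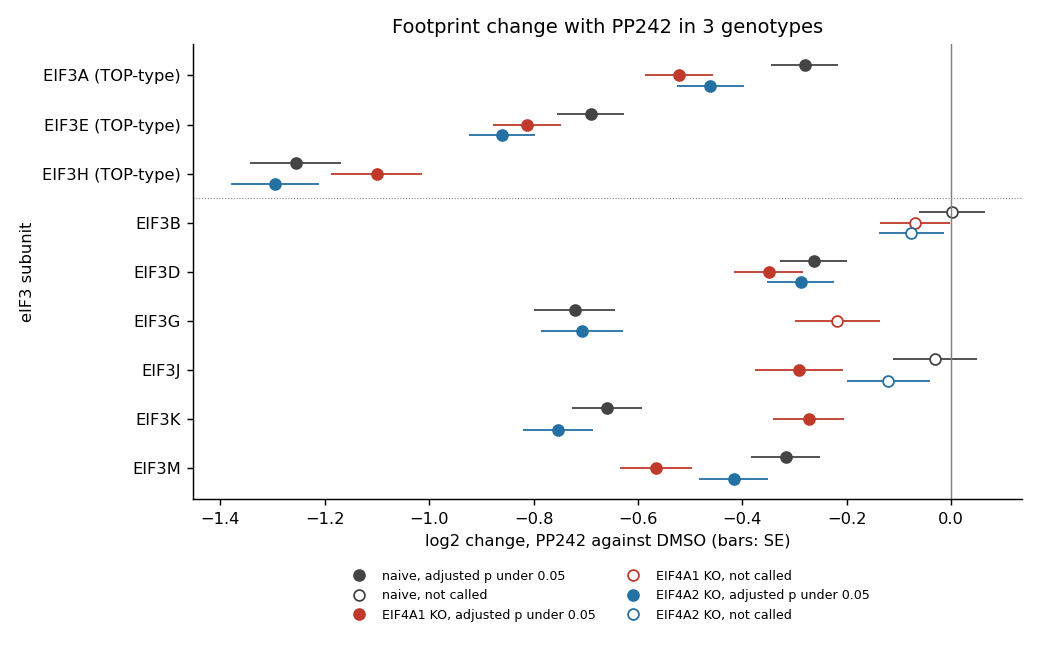
Log2 change of footprints under PP242 (both doses against DMSO) for each subunit in naive, EIF4A1 KO and EIF4A2 KO cells, with the standard error of the edgeR fit as bars. EIF3G and EIF3K lie nearer to 0 in EIF4A1 KO cells (-0.22 and -0.27) than in naive (-0.72 and -0.66) or EIF4A2 KO cells (-0.71 and -0.75).

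The difference of the PP242 response between genotypes was tested as a contrast. EIF3G and EIF3K fell less in EIF4A1 KO than in naive cells, with a difference in log2 change of 0.50 for EIF3G (SE 0.11, edgeR adjusted p 0.0019) and 0.39 for EIF3K (SE 0.096, edgeR adjusted p 0.0058). Over all transcripts 3.61% were called in this direction, and 8.09% of abundant ones. Against EIF4A2 KO cells the differences were 0.49 for EIF3G (SE 0.11, edgeR adjusted p 0.00274) and 0.48 for EIF3K (SE 0.096, edgeR adjusted p 0.000371), beside 3.7% of all transcripts and 9.46% of abundant ones called in this direction. Both contrasts share the EIF4A1 KO libraries. The other 7 subunits were called in neither contrast, among them EIF3H (0.16 against naive, edgeR adjusted p 0.554), EIF3E (-0.12, edgeR adjusted p 0.512) and EIF3A (-0.24, edgeR adjusted p 0.11). Between EIF4A2 KO and naive cells 0 of 9 were called by edgeR (0.0683% of all transcripts and 0.205% of abundant ones were), EIF3A alone having an unadjusted p under 0.05, namely 0.0498.

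These 2 differences rest on few libraries. At 10 µM alone neither EIF3G (0.33, edgeR adjusted p 0.2) nor EIF3K (0.19, edgeR adjusted p 0.408) was called against naive cells, and under a dose score of 0, 1 and 2 none of the 9 was. Without the naive 1 µM library the EIF3K difference against naive cells was 0.25 (edgeR adjusted p 0.163), and without EIF4A1 KO DMSO replicate 1 that of EIF3G was 0.42 (edgeR adjusted p 0.06). EIF3K was also not called against naive cells without EIF4A1 KO DMSO replicate 2 or the EIF4A1 KO 1 µM library (0.35 and 0.33), nor EIF3G against EIF4A2 KO cells without EIF4A1 KO DMSO replicate 1 or the EIF4A1 KO 1 µM library (0.40 and 0.39). EIF3K kept its call against EIF4A2 KO cells when any 1 of the 12 libraries was left out. The starting points differed too. EIF3G stood at 179 and 203 CPM in EIF4A1 KO DMSO cells against 243 and 246 in naive ones, and EIF3K at 562 and 538 against 647 and 666. In EIF4A2 KO cells, EIF3G also started low, at 198 and 191 CPM, and fell by 0.71 on the log2 scale. The comparison of DMSO levels uses the same control libraries as the difference of the responses, and the part of the starting level in the response was not tested.

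Without drug, RNA of 6 of 9 subunits differed between EIF4A1 KO and naive cells by small amounts, 1 up and 5 down. In either direction 36.5% of all transcripts and 61.9% of abundant ones were called, so the count is near the share of abundant ones. EIF3M RNA had 328 and 327 CPM in naive and 271 and 261 in EIF4A1 KO cells (log2 change -0.30, SE 0.035, edgeR adjusted p 2.65e-08). EIF3B RNA had 436 and 442 against 361 and 366 CPM (log2 change -0.27, SE 0.033, edgeR adjusted p 3.84e-08), and EIF3G RNA 401 and 418 against 342 and 339.8 (log2 change -0.26, SE 0.034, edgeR adjusted p 1.51e-07). In all 3 the genotypes did not overlap. EIF3H RNA (155 and 157 against 130.5 and 135 CPM) and EIF3E RNA (622 and 622 against 558 and 549.9 CPM) were lower by 0.23 and 0.17 log2 units. EIF3A RNA was higher, with 523 and 471 CPM in naive and 555 and 547.9 in EIF4A1 KO cells (log2 change 0.15, SE 0.036, edgeR adjusted p 0.00141), but not by DESeq2 (adjusted p 0.143) or without naive replicate 2. EIF3D, EIF3J and EIF3K RNA did not pass the test (log2 changes -0.06, -0.02 and 0.04).

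DMSO footprints of 4 of 9 subunits differed between EIF4A1 KO and naive cells. Of all transcripts 22.7% did and of abundant ones 44%, a share near that of the subunits. EIF3A footprints were higher, at 678 and 634 against 525 and 560.5 CPM (log2 change 0.27, SE 0.058, edgeR adjusted p 0.000106). EIF3G was lower by 0.36 (SE 0.074, edgeR adjusted p 7.11e-05), EIF3B by 0.34 (SE 0.061, edgeR adjusted p 4.91e-06) and EIF3K by 0.26 log2 units (SE 0.058, edgeR adjusted p 0.000281). EIF3B had 438 and 398 CPM in the KO against 531 and 525 in naive cells. The other 5, among them TOP-type EIF3E and EIF3H, had log2 changes between -0.00 and 0.09 and were not called. EIF3A was therefore higher and EIF3B and EIF3G were lower in both RNA and footprints, whereas EIF3K was lower in footprints alone.

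How far footprints moved relative to RNA (translation efficiency) came from the interaction of assay and genotype in 1 fit of 8 libraries. This measure fell for EIF3K, by 0.31 log2 units (SE 0.063, edgeR adjusted p 0.000205), and rose for EIF3M (0.29, SE 0.070, edgeR adjusted p 0.00243) and EIF3E (0.20, SE 0.063, edgeR adjusted p 0.0273), where 9.49% of all transcripts and 27.1% of abundant ones were called. With 3 of 9 called, the count is not far from the share of abundant ones. EIF3M and EIF3E had lower RNA in the KO and footprints that did not pass the test. EIF3K had RNA of 591 and 606 CPM in naive and 614 and 619 in EIF4A1 KO cells, beside its lower footprints. EIF3G, whose RNA and footprints were both lower, had a change of -0.10 (edgeR adjusted p 0.501), and EIF3H one of 0.22 (edgeR adjusted p 0.0797). Without EIF4A1 KO DMSO replicate 2, only EIF3K was called. The EIF3E call was lost when any of 6 of the 8 libraries was left out, and with a replicate block (edgeR adjusted p 0.0577).

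**Figure D4:**
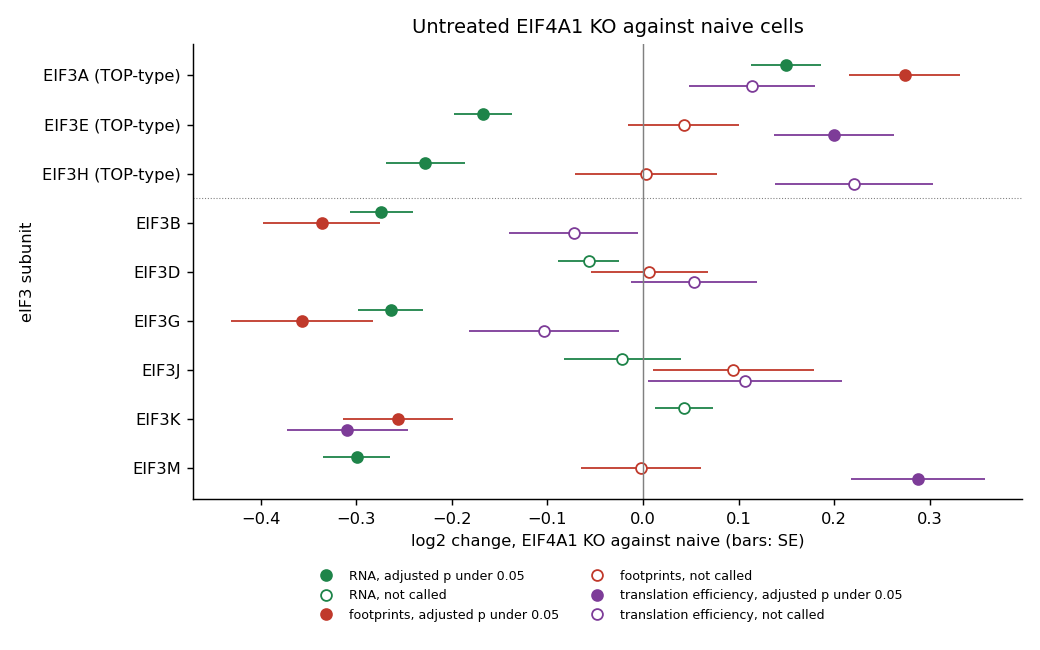
Log2 change of RNA, DMSO footprints and translation efficiency in EIF4A1 KO against naive cells for each subunit, with the standard error of the edgeR fit as bars. EIF3K has an RNA change of 0.04, which was not called, and lower footprints (-0.26), and EIF3M has lower RNA (-0.30) and footprints at -0.00.

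After loss of EIF4A2, 3 of 9 subunits were called in DMSO, all as lower. Against naive cells EIF3G was lower by 0.33 (SE 0.067, edgeR adjusted p 0.000138), EIF3D by 0.19 (SE 0.058, edgeR adjusted p 0.0208) and EIF3K by 0.18 log2 units (SE 0.055, edgeR adjusted p 0.0237), where 4.31% of all transcripts and 8.88% of abundant ones were called as lower. In either direction, 8.04% of all transcripts and 17.3% of abundant ones were called. EIF3D had 377 and 383 CPM in EIF4A2 KO cells and 429 and 440.3 in naive ones. EIF3G was thus lower in both knockouts, which share the naive libraries as controls. The calls of EIF3D and EIF3K were lost under DESeq2 (adjusted p 0.089 and 0.0917), and also without naive DMSO replicate 2 or EIF4A2 KO DMSO replicate 2, that of EIF3D in addition without EIF4A2 KO DMSO replicate 1. Set against EIF4A2 KO cells, EIF4A1 KO cells had more EIF3A (0.31 log2 units, SE 0.059, edgeR adjusted p 1.15e-05), EIF3J (0.24, SE 0.086, edgeR adjusted p 0.0282) and EIF3D (0.20, SE 0.062, edgeR adjusted p 0.0106) and less EIF3B (-0.19, SE 0.062, edgeR adjusted p 0.0141), where 22.6% of all transcripts and 42.2% of abundant ones were called. These 4 of 9 are near the share of abundant ones. Of the 4, EIF3B and EIF3J were not called under DESeq2. When single libraries were left out, 1 to 4 subunits were called, with 1 (EIF3A) when EIF4A2 KO DMSO replicate 1 was.

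The pulldowns ask how much of each mRNA comes down with tagged eIF4A1 or eIF4A2 relative to the input. With SBP-eIF4A1, 7 of 9 subunits were depleted relative to other transcripts (26.7% of all transcripts were called as lower, 43.6% of abundant ones). EIF3A was depleted most, from 629.7 and 629 CPM in the inputs to 201 and 196 in the pulldowns (log2 change -1.66, SE 0.058, edgeR adjusted p 6.04e-13). EIF3B went from 441 and 469 CPM to 224 and 243 (log2 change -0.96, SE 0.057, edgeR adjusted p 2.63e-10). EIF3H stood at 241 and 240.3 CPM in the inputs and 244 and 256 in the pulldowns (log2 change 0.05, SE 0.057, edgeR adjusted p 0.45). EIF3K, at 489 and 503 against 460.0 and 475 CPM, was not called either (log2 change -0.09, SE 0.054, edgeR adjusted p 0.187). EIF3E fell from 648 and 702 CPM to 419.6 and 444 (log2 change -0.64, SE 0.058, edgeR adjusted p 5.78e-08), and EIF3M from 293 and 307 to 225 and 247 (log2 change -0.34, SE 0.058, edgeR adjusted p 7.71e-05). EIF3D, EIF3G and EIF3J had changes of -0.49, -0.44 and -0.62, so no subunit was called as enriched. Without either SBP-eIF4A2 pulldown library, which share the estimate of the spread, EIF3K was called as depleted (-0.11).

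With SBP-eIF4A2 all 9 subunits were depleted (30% of all transcripts were called as lower, 48.8% of abundant ones). EIF3E was depleted most, from 496 and 518 CPM in the inputs to 159 and 148 in the pulldowns (log2 change -1.73, SE 0.061, edgeR adjusted p 4.88e-13). EIF3H went from 209.5 and 220.1 CPM to 112 and 120.5 (log2 change -0.88, SE 0.058, edgeR adjusted p 8.89e-10), and EIF3K from 538 and 537 to 294 and 318 (log2 change -0.81, SE 0.054, edgeR adjusted p 9.31e-10). EIF3A had 510.3 and 522 CPM in the inputs against 208 and 231 in the pulldowns, a log2 change of -1.24 (SE 0.057, edgeR adjusted p 1.07e-11), and EIF3M 258.1 and 263 against 123 and 121, a change of -1.09 (SE 0.059). The remaining 4 changed by -0.84 (EIF3D) to -1.08 (EIF3J). No overlap between input and pulldown libraries was present for any subunit with this protein.

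Tested directly, 7 of 9 subunits came down better with SBP-eIF4A1 than with SBP-eIF4A2 and EIF3A worse. As better, 10.4% of all transcripts and 28.8% of abundant ones were called, and as worse 5.3% and 13%. In either direction it was 15.7% of all transcripts and 41.8% of abundant ones. The difference in log2 enrichment was 1.08 for EIF3E (SE 0.083, edgeR adjusted p 3.02e-07) and 0.94 for EIF3H (SE 0.081, edgeR adjusted p 1.04e-06). EIF3M followed with 0.75 (SE 0.082), EIF3K with 0.73 (SE 0.076), EIF3G with 0.51 (SE 0.077), EIF3J with 0.46 (SE 0.14) and EIF3D with 0.35 (SE 0.079), and EIF3A had -0.43 (SE 0.080, edgeR adjusted p 0.0014). EIF3B did not differ by this test (0.02, edgeR adjusted p 0.905). The EIF3J call (edgeR adjusted p 0.0367) was lost with size factors by relative log expression in place of TMM (edgeR adjusted p 0.0572), under DESeq2 (adjusted p 0.109) and without any of 5 of the 8 libraries. The median difference was 0.94 for the 3 TOP-type subunits and 0.49 for the other 6, beside 0.034 for all transcripts, but the TOP-type EIF3A lay below every other subunit.

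Coding length moved with these values. Over the 9 subunits the Spearman rank correlation of length with log2 enrichment was -0.7 for SBP-eIF4A1 and -0.45 for SBP-eIF4A2, and over 6268 abundant transcripts it was -0.485 and -0.212. For the difference between the proteins it was -0.483 over the subunits and -0.631 over the abundant transcripts. The points share libraries, and the part of length in the results was not tested. No pulldown from cells without a tagged protein was analysed here, so RNA held by the beads themselves is included.

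**Figure D5:**
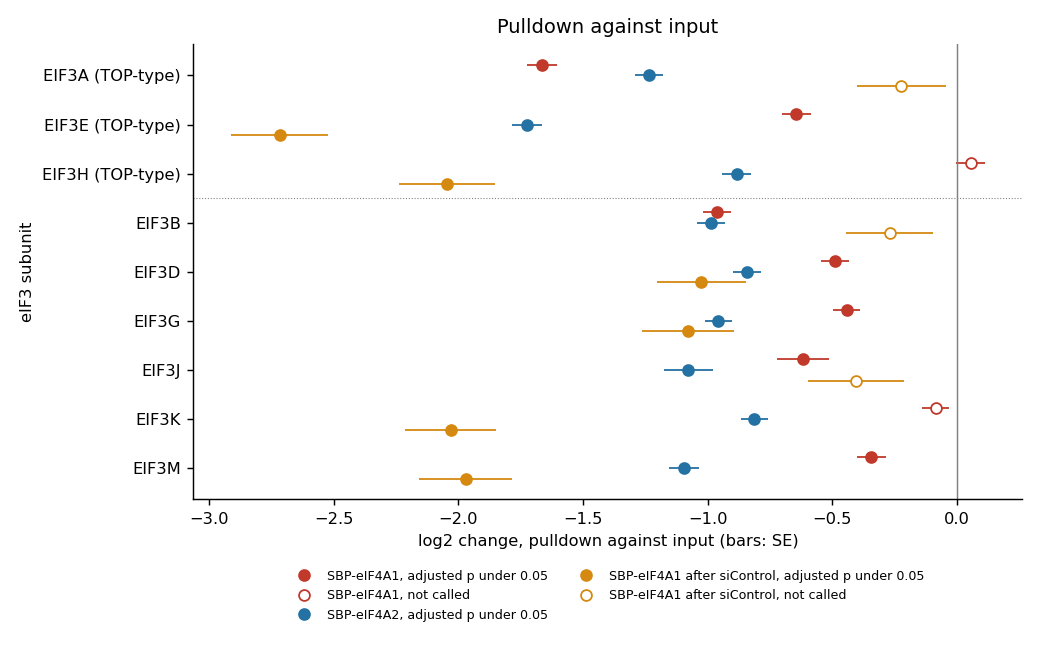
Log2 ratio of pulldown to input for each subunit with SBP-eIF4A1, SBP-eIF4A2, and SBP-eIF4A1 after control siRNA. EIF3A is depleted most with SBP-eIF4A1 without siRNA (-1.66) and least after control siRNA (-0.22), and EIF3E is depleted most with SBP-eIF4A2 (-1.73) and after control siRNA (-2.72).

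The SBP-eIF4A1 pulldown after control siRNA ordered the subunits differently. EIF3E was depleted most, from 918 and 1092 CPM in the inputs to 141 and 164 in the pulldowns (log2 change -2.72, SE 0.19, edgeR adjusted p 4.75e-15). EIF3H went from 279 and 308 CPM to 72.2 and 69.7 (log2 change -2.05, edgeR adjusted p 7.24e-12), EIF3K from 859 and 931 to 232 and 206 (log2 change -2.03, edgeR adjusted p 1.89e-12) and EIF3M from 439 and 537 to 119 and 131 (log2 change -1.97, edgeR adjusted p 8.48e-12). EIF3H and EIF3K, which were not called in the pulldown without siRNA, were thus among the most depleted here. EIF3G and EIF3D changed by -1.08 and -1.03. EIF3A, at 938 and 967 CPM in the inputs and 763 and 867 in the pulldowns (log2 change -0.22, SE 0.18, edgeR adjusted p 0.304), EIF3B (-0.27, edgeR adjusted p 0.202) and EIF3J (-0.41, edgeR adjusted p 0.0764) were not called. In all, 6 of 9 were called as lower, where 24.1% of all transcripts and 42.6% of abundant ones were. Length correlated with this enrichment in the other direction, with a Spearman rho of 0.467 over the 9 subunits and 0.526 over 6318 abundant transcripts, and its part was not tested. The experiments with and without siRNA were fitted apart, and the difference between them was not tested. Without control siRNA pulldown replicate 2, EIF3J was called too (-0.64, edgeR adjusted p 0.0273).

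LARP1 siRNA asks whether binding to eIF4A1 depends on LARP1. For the 9 subunits the enrichment after LARP1 siRNA less that after control siRNA lay between -0.29 and 0.21 log2 units, with standard errors of 0.28 to 0.30 and an edgeR adjusted p of 1 for each. There is 1 LARP1 siRNA pulldown library, assumed here to vary like the other groups, and edgeR called 0 transcripts in all (837 had an unadjusted p under 0.05, and DESeq2 called 0, with 344 at an unadjusted p under 0.05). EIF3H, for instance, had 212 and 159.7 CPM in the LARP1 siRNA inputs and 44.1 in the pulldown, and EIF3E 519 and 688 against 83.9. The approximate 95% interval of the difference from control siRNA ran from -0.61 to 0.55 log2 units for EIF3H and from -0.70 to 0.44 for EIF3E. EIF3K, with 568 and 590.2 CPM in the inputs and 156 in the pulldown, had an interval of -0.40 to 0.68, and EIF3A, with 773 and 589 against 494, one of -0.79 to 0.32. These intervals take the spread of the lone pulldown library from the other groups and set no bound on the effect of LARP1 siRNA.

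The inputs themselves differed for EIF3E, with 519 and 688 CPM after LARP1 siRNA against 918 and 1092 after control siRNA (log2 change -0.74, SE 0.18, edgeR adjusted p 0.0495), 1 subunit of 9 where 0.198% of all transcripts and 0.665% of abundant ones were called as lower. EIF3H (-0.66), EIF3M (-0.64) and EIF3K (-0.63) had values nearly as low and were not called (edgeR adjusted p 0.0821, 0.0807 and 0.0758). The EIF3E call was lost when any 1 of the 4 input libraries was left out, with log2 changes of -0.53 to -0.95 and edgeR adjusted p of 0.0746 to 0.642, and also without the LARP1 siRNA pulldown library, which shares the estimate of the spread (edgeR adjusted p 0.0751). DESeq2 called EIF3E, EIF3H, EIF3K and EIF3M, all as lower, and edgeR called EIF3E, EIF3K and EIF3M without control siRNA pulldown replicate 2. EIF3B had the only value above 0 (0.19, edgeR adjusted p 0.728), at 483 and 486 against 428 and 421 CPM.

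Across the 12 profiling libraries some subunits, but not all, paired off by their profiles of log2 CPM. The closest were EIF3E and EIF3H (Pearson r 0.979) and EIF3G and EIF3K (r 0.971). EIF3M was nearest to EIF3E (r 0.951), EIF3A to EIF3D (r 0.913) and EIF3J to EIF3D (r 0.868), whereas EIF3B correlated with no other subunit above 0.353 (EIF3M). Among 5793 other transcripts of that abundance, the profile nearest to the mean of EIF3A, EIF3E and EIF3H was that of ENST00000274065.9 (r 0.996), followed by ENST00000262056.13 (r 0.995). ENST00000274065.9 had 1303 and 1223 CPM in naive controls and 285 (1 µM) and 381 (10 µM) with PP242, and ENST00000262056.13 had 259 and 269.9, 136 and 160.1. Both fell in each genotype, the first from 1298 and 1318 CPM to 389 and 366 without EIF4A1 and from 1088 and 1048 to 239 and 247 without EIF4A2. These correlations describe 12 libraries that share 3 genotypes and the drug, and the files do not pair the 2 identifiers with genes.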

How the data were processed

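The authors deposited 1 table of counts per library, with a transcript identifier, a length and whole-number counts. Read counts were not normalized. Per the labels' protocols, footprints came from RNase I digestion and ribosome pelleting, and RNA-seq and pulldown libraries from a stranded mRNA kit. The submitters' processing notes name CASAVA 1.8, STAR 2.7.0a and hg38. The counting tool and annotation are not given in the sources used here. The deposited length column matched the protein length less 9 for all 9 subunits and is used as the number of codons counted.

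The members, classes and tests were chosen with earlier results of these data known. Transcripts with counts (94734 of 227264) were reduced to 77343 distinct and then to 35499, 1 per locus, by dropping a transcript whose log2 CPM (pseudocount 0.5) correlated at 0.9 or more with a kept one within 10 rows. The subunits were always kept. edgeR 4.0.16 (R 4.3.3, limma 3.58.1) was run with TMM scaling and the quasi-likelihood test, two-sided, on transcripts passing filterByExpr (at least 10 counts in enough libraries and 15 in all), with Benjamini-Hochberg adjustment over all transcripts tested. A call is an adjusted p under 0.05, and SE is the absolute log2 change over the square root of F. Separate fits covered the 4 RNA-seq, the 6 DMSO profiling, the 8 drug-free naive and EIF4A1 KO libraries of both assays together, the 12 profiling, the 8 pulldown and the 7 siRNA libraries. PP242 was coded as both doses together against DMSO, with earlier results known, in which the doses were alike and this coding gave more calls than a dose score, which is an alternative. DESeq2 1.42.0, size factors by relative log expression (RLE), no filter, all distinct transcripts, single doses, single libraries left out and a replicate block were the other alternatives. The pipeline was tested on simulated counts. All 9 subunits are named in each comparison, and outside them the 2 transcripts most correlated with the TOP-type mean over the profiling libraries. Promoter sequences are from RefSeq (GRCh38.p14).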

Additional observations from a re-analysis of the deposited data

Results flagged for a closer look

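Results listed here differed between genotypes or between pulldown proteins by a test of the difference itself (edgeR). For the PP242 response, the log2 change in EIF4A1 KO cells less that in naive cells was 0.50 for EIF3G and 0.39 for EIF3K, and less that in EIF4A2 KO cells 0.49 for EIF3G and 0.48 for EIF3K. For the enrichment with SBP-eIF4A1 less that with SBP-eIF4A2, the log2 difference was 1.08 for EIF3E, 0.94 for EIF3H, 0.75 for EIF3M, 0.73 for EIF3K, 0.51 for EIF3G, 0.46 for EIF3J (not called with RLE size factors or by DESeq2), 0.35 for EIF3D and -0.43 for EIF3A.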

How the results depend on the processing

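The number of subunits called depended most on how PP242 was coded. With a dose score it was 2 for naive, 0 for EIF4A1 KO and 4 for EIF4A2 KO cells, and 0 for the difference of EIF4A1 KO from naive and from EIF4A2 KO cells. At 10 µM alone it was 4 in naive cells, 0 for EIF4A1 KO less naive and 1 for EIF4A1 KO less EIF4A2 KO. The TOP-type median less that of the other subunits was -0.23 (naive), -0.30 (EIF4A1 KO) and -0.28 (EIF4A2 KO) per step of the score. DESeq2 called 1 subunit in DMSO footprints of EIF4A2 KO against naive cells, 2 in EIF4A1 KO against EIF4A2 KO cells and 4 in LARP1 against control siRNA inputs, where no filter also gave 4. With single libraries left out, the count ranged from 4 to 7 for PP242 in naive cells, 1 to 2 for EIF4A1 KO less naive and for EIF4A1 KO less EIF4A2 KO, 1 to 3 for DMSO footprints of EIF4A2 KO against naive cells, 1 to 4 for EIF4A1 KO against EIF4A2 KO cells, 1 to 3 for translation efficiency and 0 to 3 for the siRNA inputs. The gap between class medians then ranged from -0.110 to 0.0196 for the PP242 response of EIF4A1 KO less naive, 0.00855 to 0.139 for EIF4A1 KO less EIF4A2 KO, -0.238 to -0.116 for SBP-eIF4A1, -0.353 to -0.180 for SBP-eIF4A2 and 0.353 to 0.535 for their difference. The cause was not tested.

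Log2 values near 0 that were not called changed sign. DMSO footprints of EIF4A1 KO against naive cells were 0.0118 (RLE) and 0.0119 (DESeq2) for EIF3M, and with no filter and all distinct transcripts -0.0161 and -0.000251 for EIF3D and -0.0190 and -0.00316 for EIF3H. The PP242 response of EIF3B in naive cells was -0.00195 with no filter and -0.0199 at 1 µM, and its difference between the knockouts -0.00121 (RLE), -0.00106 (DESeq2), -0.0205 (dose score) and -0.0608 (10 µM). For EIF4A2 KO less naive, EIF3G had -0.0157 (dose score) and -0.0603 (10 µM) and EIF3K 0.00749 (1 µM), and for EIF4A1 KO less naive EIF3H had -0.0453 (10 µM). The enrichment difference of EIF3B was -0.0136 (RLE) and -0.0136 (DESeq2).

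Leaving out single libraries also turned uncalled values, with these ranges. In DMSO footprints of EIF4A1 KO against naive cells they were -0.0150 to 0.0234 (EIF3D), -0.0290 to 0.0307 (EIF3H) and -0.0603 to 0.0553 (EIF3M), in EIF4A2 KO against naive cells -0.0834 to 0.0113 (EIF3A), and between the knockouts -0.112 to 0.0621 (EIF3G). RNA of EIF3J had -0.0795 to 0.0383, and translation efficiency of EIF3D -0.0149 to 0.0867. The PP242 response in naive cells had -0.0208 to 0.0204 (EIF3B) and -0.0654 to 0.00719 (EIF3J), and in EIF4A1 KO cells -0.138 to 0.00238 (EIF3B). For EIF4A1 KO less naive it had -0.142 to 0.00359 (EIF3B) and -0.0166 to 0.305 (EIF3H), and for EIF4A1 KO less EIF4A2 KO -0.0629 to 0.0794 (EIF3B) and -0.0101 to 0.114 (EIF3E). For EIF4A2 KO less naive it had -0.0571 to 0.00813 (EIF3D), -0.0547 to 0.0769 (EIF3G), -0.211 to 0.110 (EIF3H) and -0.229 to 0.0442 (EIF3K). The enrichment difference of EIF3B between the proteins had -0.0356 to 0.0834. That between LARP1 and control siRNA had -0.0857 to 0.0463 (EIF3D), -0.341 to 0.0883 (EIF3E), -0.224 to 0.168 (EIF3H) and -0.195 to 0.0446 (EIF3M).

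Over all transcripts, DESeq2 called 5441 against 9390 by edgeR in RNA, 2216 against 4508 and 526 against 1596 in DMSO footprints of EIF4A1 KO and EIF4A2 KO against naive cells, 2265 against 4488 between the knockouts, and 1144 against 1924, 750 against 1234 and 1440 against 2400 for PP242 (naive, EIF4A1 KO, EIF4A2 KO). The dose score called 289, 0 and 448 of the last 3. For LARP1 against control siRNA inputs the calls were 85 higher and 53 lower by edgeR, 89 and 84 with RLE factors and 116 and 254 by DESeq2. In RNA, all distinct transcripts gave 26611 calls among 64352 tested, against 9390 among 25744 with 1 transcript per locus.

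Same-numbered libraries did not deviate together throughout, so the numbers were not taken as pairs. Correlations of deviations were -0.183 to 0.127, except for 0.588 between control siRNA inputs and pulldowns, which were fitted without pairs too. With a replicate block 1 subunit was called in DMSO footprints of EIF4A2 KO against naive cells, 2 in translation efficiency (EIF3E was lost) and 0 in the siRNA inputs. A crossed block for RNA, added after seeing the data because same-numbered RNA-seq libraries correlated at -0.109, called 6. The PP242 fit had no replicate numbers to block, since each dose has 1 library. The lowest count of a subunit was 265 in profiling and 281 elsewhere.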
